A study of Homo sapiens with 6 samples.

Results

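Translation initiation and elongation factors are the proteins that bring a ribosome to the start codon of an mRNA and then move it along the coding sequence. The genes described here are those of the deposited table that are annotated as protein-coding and whose symbol starts with EIF or EEF, without EIF2AK2, which is not analysed here. The rule finds 67 members among 30949 listed genes, of which 17152 are protein-coding. Polyadenylated RNA was sequenced from wild-type human astrocytes derived from WTC11, an established induced pluripotent stem cell line, and grown as floating aggregates in alginate capsules. In the ITC group, 3 cultures received interleukin 1alpha, TNFalpha and complement C1q, and in the vehicle group 3 cultures received vehicle only, with RNA taken after 48 hours. The study made its capsules in 3 batches, each divided between the treatments, and whether a replicate number stands for such a batch is not stated in the labels. The p-values therefore measure the spread between these cultures of a single cell line.

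In initiation, eIF2 delivers the initiator tRNA, eIF3 scaffolds the small ribosomal subunit, eIF4F binds the mRNA cap and unwinds the leader, and eIF1, eIF1A and eIF5 govern the choice of start codon. In elongation, eEF1A brings each aminoacyl-tRNA, eEF1B recharges eEF1A with GTP, eEF2 moves the ribosome on, and eIF5A helps it through difficult peptide bonds. Cells adjust the whole process through kinases that act on eIF2 and eEF2, through proteins that sequester eIF4E, and through mRNA elements such as the pyrimidine tract at the start of many transcripts of the translation machinery. None of this control by phosphorylation is visible in RNA levels.

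Libraries held between 17398921 and 29941685 counts. All 10 astrocyte markers had enough counts to test, but their levels moved: 3 rose, 6 fell and 1, GFAP, was not called. GFAP was at 106 ± 19.6 CPM (counts scaled to library depth with TMM factors) in ITC and 121 ± 25.9 CPM in vehicle cultures (SD, n = 3 each). The 3 that rose were GLUL, CD44 and SOX9. AQP4, ALDH1L1, SLC1A2, S100B and GJA1 were among those that fell, and the median log2 change over the list was -0.64. Together the 10 astrocyte markers summed to 3311 to 4141 CPM in ITC and 2328 to 2792 CPM in vehicle libraries, without overlap. SOX9 (1099 ± 210 CPM in ITC, 611 ± 157 CPM in vehicle), CD44 (1196 ± 140 and 493 ± 69.1 CPM) and GLUL (911 ± 91.9 and 349 ± 33.9 CPM) made up most of that sum. The higher sum in ITC came from these 3, while 6 others fell. Of 7 tested neural progenitor markers, 6 fell and VIM rose. The 8 listed progenitor markers summed to 3078 to 3779 CPM in ITC and 2787 to 3675 CPM in vehicle libraries, with overlap. Of 10 tested neuron markers, 5 fell and the others were not called. Summed over all 11 listed, the level was 283 to 386 CPM in ITC and 826 to 1077 CPM in vehicle libraries. MAP2 (238 ± 36.8 CPM in ITC, 700 ± 88.3 CPM in vehicle) and DCX (34.3 ± 13.4 and 159 ± 40.7 CPM) made up most of that sum. STMN2, at 19.1 ± 3.74 CPM in ITC and 22.3 ± 1.22 CPM in vehicle cultures, was not called. Summed over 8 markers of dividing cells, all of which fell, the level was 103 to 112 CPM in ITC and 714 to 772 CPM in vehicle libraries. The part of these shifts in the results below was not tested, and in bulk RNA fewer cells of a type and less RNA per cell cannot be told apart.

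Most translation factor transcripts differed little between ITC and vehicle cultures. Of 66 members with enough counts to test, 8 rose and 6 fell, at a threshold of 0.05 on the Benjamini-Hochberg adjusted p of an edgeR quasi-likelihood test fitted to all genes. The 8 that rose were EEF1A2, EEF1AKMT4, EIF3C, EIF4G1, EIF5A, EIF1, EIF4E2 and EIF3B. The 6 that fell were EIF4A2, EIF3E, EEF1AKMT2, EEF1E1, EIF1AX and EIF2D. The 14 called members are 21.2% of those tested, against 39.4% of the 16756 genes tested in all, where 20.4% rose and 19% fell. The other member, EIF1AY, was not tested, and its level is not given. DESeq2, voom and limma on FPKM called 11, 13 and 12 members, and each of those was among the 14 called by edgeR.

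Changes of the members were also small in size. Their median absolute log2 change was 0.25, against 0.47 over all tested genes, and their median standard error was 0.17, against 0.20. Only 1 member (1.52%), EEF1A2, differed by at least 2-fold, against 4012 genes (23.9%) in all. The groups did not overlap in 25 members (37.9%), 18 higher and 7 lower in ITC, against 50.1% of all tested genes. At an unadjusted p under 0.05 there were 20 members (30.3%), against 47.7% of all genes. The median log2 change was 0.10 over the members and -0.01 over all genes, but it was -0.05 and -0.16 with upper quartile scaling and -0.13 and -0.24 with library size only, so the sign of the members' median depends on the scaling, which moved the median of all genes as well.

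**Figure D1:**
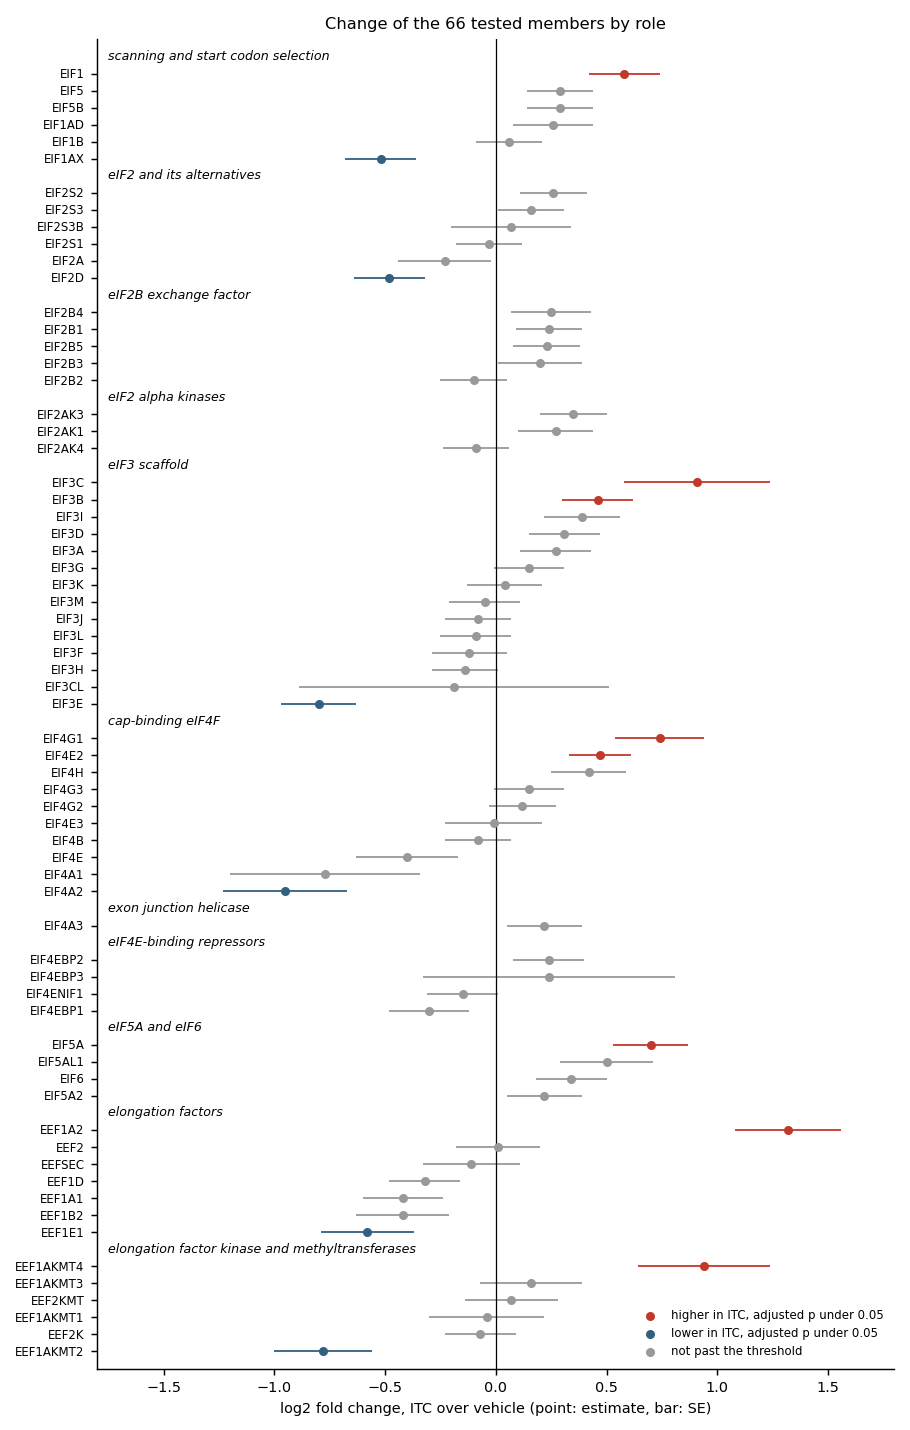
Log2 fold change, ITC over vehicle, of the 66 tested members, ordered by role and by size within a role. Points are estimates and bars standard errors from edgeR, red for the 8 members higher and blue for the 6 lower at an adjusted p under 0.05; most grey points lie within 0.5 of 0.

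Levels span a wide range. The deposited FPKM scale divides by a gene length that counts all annotated exon bases, so levels of different genes compare only roughly. On that scale EEF1A1 came first in both groups at 1423 ± 147 FPKM in ITC and 1886 ± 407 FPKM in vehicle cultures. EEF2, the translocase, came next at 603 ± 134 FPKM in ITC and 593 ± 125 FPKM in vehicle cultures. After them in ITC stood EIF4G2 at 143 ± 3.39 FPKM in ITC and 131 ± 11 FPKM in vehicle cultures. EIF5A was at 143 ± 28.2 FPKM in ITC and 87.0 ± 7.48 FPKM in vehicle cultures, and EIF1 at 140 ± 18.6 FPKM in ITC and 92.7 ± 4.27 FPKM in vehicle cultures (SD, n = 3 each). In ITC cultures EIF4G2, EIF5A and EIF1 did not differ beyond their spread. At the other end lay EIF4A1 and EIF4E3, both listed under 1 FPKM in mean in either group. The listed level of EIF4A1 is not a measure of that gene alone. Other genes on its strand share 48.6% of its exon bases, and pseudogenes hold many of the counts, as given below.

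**Figure D2:**
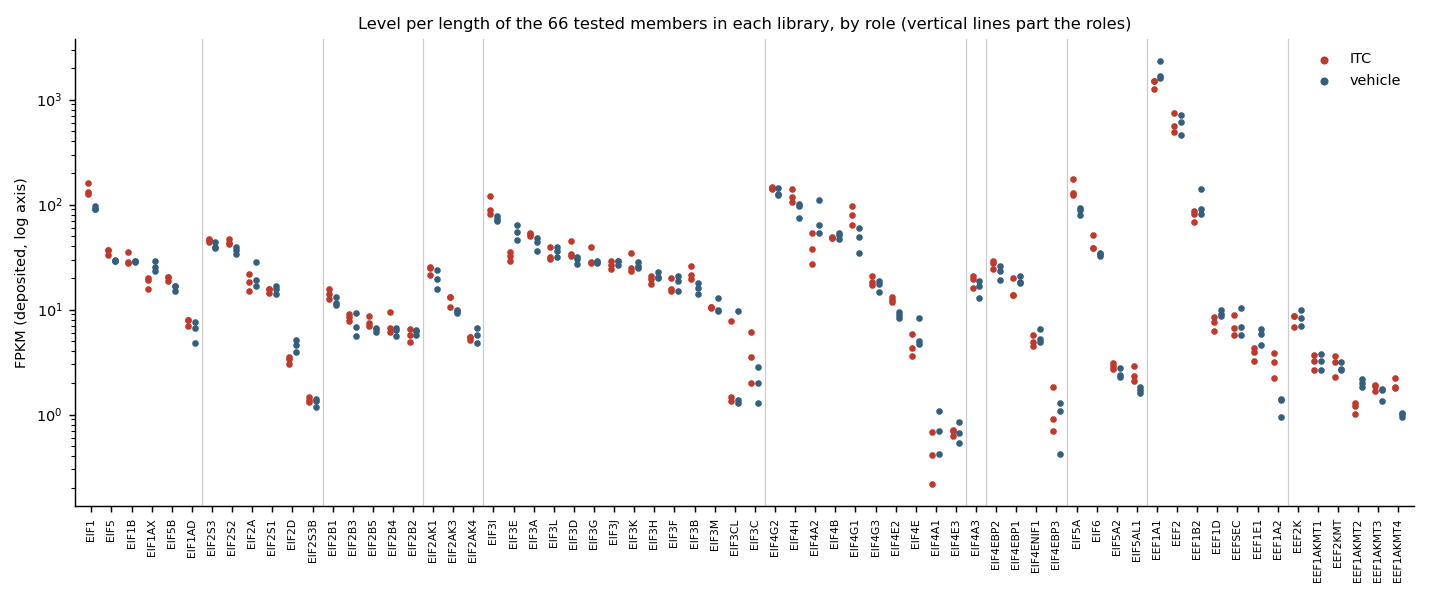
Deposited FPKM, on a log axis, of the 66 tested members in each of the 3 ITC (red) and 3 vehicle (blue) libraries, with grey lines between roles. EEF1A1 and EEF2 stand above all other members, and the EIF3 subunits lie mostly between 10 and 100 FPKM apart from EIF3C and EIF3CL.

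Many transcripts of the translation machinery begin with a C and a run of pyrimidines, the 5' terminal oligopyrimidine tract that links their translation to mTORC1 signaling. The first bases of several members are shown because they tell apart the elongation factors and subunits that carry such a start from those that do not. Each line gives 10 bases before and 20 bases from the RefSeq transcript start (GRCh38.p14), 5' to 3', with the uninterrupted pyrimidine run from the start in capitals where it is a C followed by at least 4 pyrimidines (C or T).
EEF1A1, chr6:73521013-73521042, minus strand: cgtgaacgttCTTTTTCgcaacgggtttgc
EEF2, chr19:3985444-3985473, minus strand: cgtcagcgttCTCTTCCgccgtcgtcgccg
EEF1B2, chr2:206159885-206159914, plus strand: ctcttcgggtCCTTTTTCCTCTCTTCagcg
EIF4A2, chr3:186783567-186783596, plus strand: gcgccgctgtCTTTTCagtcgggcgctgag
EIF2D, chr1:206612446-206612475, minus strand: ccagccgggcCCTTTTCgcggccgggcccc
EIF3F, chr11:7987327-7987356, plus strand: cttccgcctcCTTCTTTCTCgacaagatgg
EIF4B, chr12:53006446-53006475, plus strand: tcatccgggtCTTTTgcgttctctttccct
EIF1, chr17:41688875-41688904, plus strand: ccgcccctctgccccagtcactgagccgcc
EIF1, which has no such run, is given for contrast. It was taken from the members that rose and have 1 listed start, so its rise is not a result about the tract.

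RefSeq promoter entries matched 53 members with 70 starts. The tract stood at 13 member starts (18.6%), 1 in each of 13 members, against 4.07% of all 35116 starts in the table. It was searched on the transcribed strand at the start only, and a match is a description of letters. Besides the 7 with a tract shown, EIF2A, EIF2S3, EIF2S3B, EIF3D, EIF3K and EIF3M carry one. Of the 13 members with the tract, 2 fell (EIF4A2 and EIF2D) and the others were not called by edgeR, with a median log2 change of -0.08. Of the 39 tested members with an entry and no tract, 7 rose and 3 fell, with a median of 0.23. The 14 members without an entry, among them EEF1A2, which rose, and EIF3E, which fell, are in neither set. Over all tested genes the medians were -0.06 for 830 genes with the tract, of which 18.2% rose and 21.3% fell, and 0.03 for 10723 genes without it, of which 22.6% rose and 18.7% fell. Among genes with the tract that are neither members nor ribosomal protein genes, 151 rose and 151 fell of 769, with a median of -0.03. Of 48 genes of cytosolic ribosomal proteins with the tract, 24 fell (50%) and the others were not called, with a median of -0.56. Of all 67 tested ribosomal protein genes with an entry, with or without the tract, 32 fell (47.8%) and 1 rose, with a median of -0.53. Differences between these sets were not tested.

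EEF1A1 is by far the largest source of reads among the members. It took 0.755, 0.676 and 0.843% of all counts in the ITC libraries, against 0.989, 1.07 and 1.51% in the vehicle libraries. Each vehicle library lay above each ITC library, and vehicle replicate 3 stood highest. EEF2 took 0.256, 0.207 and 0.186% in ITC and 0.292, 0.263 and 0.201% in vehicle libraries, with overlap. The other 65 members together took 0.744, 0.739 and 0.756% in ITC and 0.799, 0.794 and 0.813% in vehicle libraries. All members summed to 1.72 ± 0.0868% of counts in ITC and 2.24 ± 0.246% in vehicle cultures (SD, n = 3 each). Of the member counts, EEF1A1 alone made up 41.7 to 47.2% in ITC and 47.6 to 59.9% in vehicle libraries. The 86 ribosomal protein genes took 3.11, 2.59 and 3.19% in ITC and 3.73, 4.79 and 5.97% in vehicle libraries, again with vehicle replicate 3 highest. These shares depend on everything else in a library and were not tested.

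**Figure D3:**
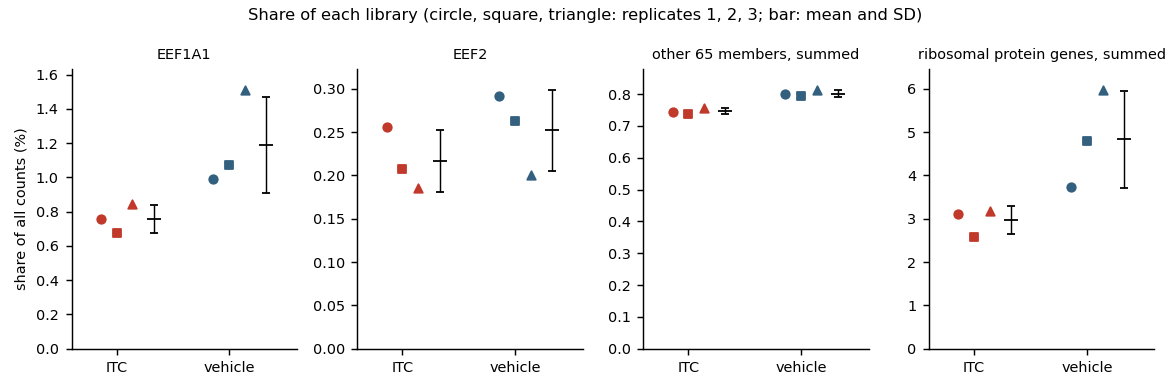
Share of all counts, in percent, taken by EEF1A1, EEF2, the other 65 members and 86 ribosomal protein genes in each library, ITC left of vehicle. Points are libraries and bars the mean and SD; EEF1A1 lies between 0.676 and 0.843% in ITC and between 0.989 and 1.51% in vehicle libraries.

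Among the elongation factors, 1 of 7 rose, EEF1A2, and 1 fell, EEF1E1. EEF1A2 encodes the eEF1A form of neurons and muscle, and EEF1E1 a small protein of the multi-synthetase complex. EEF1A2 (chromosome 20, 63488012 to 63499322, minus strand) had 18.2, 10.7 and 15.4 CPM in ITC libraries, against 6.63, 6.6 and 4.64 CPM in vehicle libraries. Every ITC library lay above every vehicle library. The log2 change was 1.32 ± 0.24 (SE; edgeR adjusted p = 0.000435), or 2.49-fold. Per length it remained a low transcript, at 3.1 ± 0.827 FPKM in ITC and 1.24 ± 0.26 FPKM in vehicle cultures. The neuron markers summed lower in ITC, as given above. The 7 muscle or mesenchymal markers summed to 555 to 726 CPM in ITC and 540 to 618 CPM in vehicle libraries, with overlap. Of 6 tested, 1 rose and 2 fell. The part of either cell type in the rise of EEF1A2 was not tested.

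EEF1A1, the eEF1A form made in nearly all cells (chromosome 6, 73515750 to 73523797), had 8530, 7254 and 8864 CPM in ITC libraries, against 9267, 9743 and 14031 CPM in vehicle libraries. The highest ITC library lay below the lowest vehicle library, and vehicle replicate 3 lay far above the other vehicle libraries. With a log2 change of -0.42 ± 0.18 (edgeR adjusted p = 0.0831) it was not called. It was called lower without vehicle replicate 1 (adjusted p = 0.0252), with upper quartile scaling (0.0288) and with library size only (0.0112). Near-identical processed pseudogenes held 4.15 to 4.71% of the counts of EEF1A1 and its copies in each library.

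EEF2 (chromosome 19, 3976056 to 3985469) had 2889, 2217 and 1955 CPM in ITC and 2735, 2403 and 1858 CPM in vehicle libraries, a log2 change of 0.01 ± 0.19 (edgeR adjusted p = 0.963). The groups overlapped throughout. EEF1E1 (chromosome 6, 8073360 to 8102578) had 6.49, 8.88 and 8.2 CPM in ITC libraries, against 9.32, 12.1 and 13.7 CPM in vehicle libraries. Of the EEF1E1 exon bases, 18.7% are shared with a read-through transcript with BLOC1S5. All ITC libraries of EEF1E1 lay below all vehicle libraries. Its log2 change was -0.58 ± 0.21 (edgeR adjusted p = 0.0442), and the call was lost in 6 of 19 alternatives. Those were DESeq2 (0.0628) and leaving out ITC replicate 1 (0.145), 2 (0.0661) or 3 (0.0685) or vehicle replicate 2 (0.0999) or 3 (0.0954). The exchange factor subunits EEF1B2 (-0.42 ± 0.21, edgeR adjusted p = 0.123) and EEF1D (-0.32 ± 0.16, adjusted p = 0.123) and EEFSEC, the selenocysteine-specific factor (-0.11 ± 0.22), were not called. The median log2 change of the 7 was -0.32.

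Of the 6 genes for the eEF2 kinase and for methyltransferases of eEF1A and eEF2, 1 rose and 1 fell, both encoding enzymes that methylate lysines of eEF1A. EEF1AKMT4 (chromosome 3, 184249650 to 184259585) had 3.1, 3.22 and 4.01 CPM in ITC libraries, against 1.67, 1.83 and 1.86 CPM in vehicle libraries. The groups were well apart at a low level, with a log2 change of 0.94 ± 0.30 (edgeR adjusted p = 0.0229). A read-through transcript with ECE2 and other genes share 46.8% of its exon bases, so the source of these reads is uncertain. EEF1AKMT2 (chromosome 10, 124748149 to 124791870) had 4.13, 5.28 and 5.02 CPM in ITC libraries, against 7.33, 8.23 and 9.26 CPM in vehicle libraries. Another gene on the same strand shares 14.9% of the EEF1AKMT2 exon bases. All ITC libraries lay lower, the log2 change was -0.78 ± 0.22 (edgeR adjusted p = 0.011), and the call held in all 19 alternatives. That of EEF1AKMT4 was lost with library size only (0.0764) and without ITC replicate 2 (0.0511), ITC replicate 3 (0.0861) or vehicle replicate 2 (0.0736).

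EEF2K, the kinase that inactivates eEF2, had 66.5, 68 and 54.5 CPM in ITC and 76.8, 65.5 and 55.4 CPM in vehicle libraries. These overlapped, with a log2 change of -0.07 ± 0.16 (edgeR adjusted p = 0.782). EEF1AKMT1 had 4.67, 4.22 and 3.54 CPM in ITC and 4.18, 3.51 and 5.05 CPM in vehicle libraries, a change of -0.04 ± 0.26. EEF1AKMT3 (0.16 ± 0.23) and EEF2KMT (0.07 ± 0.21) were not called either.

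**Figure D4:**
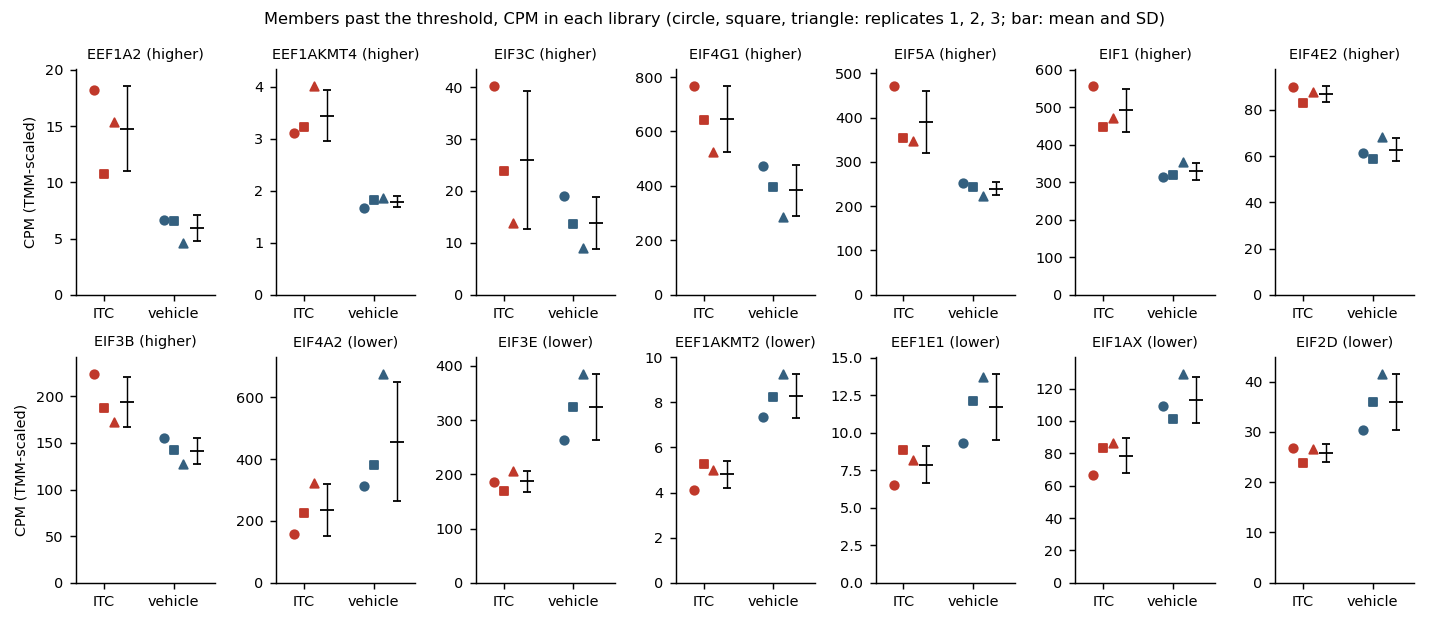
CPM on the TMM scale of the 14 called members in each library, ITC left of vehicle, first the 8 that rose and then the 6 that fell, each by size of change. Points are libraries and bars the mean and SD; EIF3C and EIF4A2 are the 2 called members whose groups overlap.

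Among the factors of scanning and start codon selection, EIF1 rose and EIF1AX fell, with 6 of 7 members tested. EIF1, which holds back the ribosome from poor start codons (chromosome 17, 41688885 to 41692668), had 556, 446 and 472 CPM in ITC libraries, against 314, 318 and 354 CPM in vehicle libraries. The lowest ITC library lay above the highest vehicle library, with a log2 change of 0.58 ± 0.16 (edgeR adjusted p = 0.00934). EIF1AX, the X-linked gene of eIF1A (chromosome X, 20124518 to 20141844), had 66.3, 83 and 86.3 CPM in ITC libraries, against 109, 101 and 129 CPM in vehicle libraries. There the ITC libraries all lay lower, with a log2 change of -0.52 ± 0.16 (edgeR adjusted p = 0.0205). The call of EIF1 was lost without vehicle replicate 2 (0.0831) and with library size only (0.0785), and that of EIF1AX without ITC replicate 1 (0.0712) or 2 (0.0616). A processed copy, EIF1AXP1, held 4.97 to 7.69% of the counts of EIF1AX and itself.

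EIF5, the GTPase activator of eIF2, had 271, 307 and 310 CPM in ITC and 238, 246 and 245 CPM in vehicle libraries. All ITC libraries lay higher, but the log2 change of 0.29 ± 0.15 was not called (edgeR adjusted p = 0.146). EIF1B, a close paralog of EIF1, had 64.6, 51.2 and 53.7 CPM in ITC and 53.3, 54.7 and 54.5 CPM in vehicle libraries, which overlapped (0.06 ± 0.15). EIF5B, which joins the ribosomal subunits (0.29 ± 0.15), and EIF1AD (0.26 ± 0.18) were not called.

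Within eIF2 and the factors that can stand in for it, 1 of 6 fell, EIF2D, and the other 5 were not called. EIF2D, which can deliver tRNA without GTP and takes part in ribosome recycling (chromosome 1, 206571292 to 206612463), had 26.9, 23.8 and 26.7 CPM in ITC libraries, against 30.3, 36 and 41.5 CPM in vehicle libraries. All ITC libraries lay below the vehicle libraries, with a log2 change of -0.48 ± 0.16 (edgeR adjusted p = 0.0313). EIF2S2, the beta subunit, had 107, 111 and 124 CPM in ITC and 85.2, 95.4 and 106 CPM in vehicle libraries. Its groups just failed to overlap and its log2 change of 0.26 ± 0.15 was not called (edgeR adjusted p = 0.195). EIF2S3, the gamma subunit, had 145, 157 and 161 CPM in ITC and 145, 135 and 134 CPM in vehicle libraries (0.16 ± 0.15), with the lowest ITC library level with the highest vehicle library. The alpha subunit EIF2S1, the target of the eIF2 kinases, differed by -0.03 ± 0.15. Without ITC replicate 2 (0.15), ITC replicate 3 (0.0587), vehicle replicate 2 (0.0801) or vehicle replicate 3 (0.0673), EIF2D was not called, nor on the log2(FPKM + 1) scale (0.065) or the log2(FPKM + 0.1) scale (0.0639).

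The 5 subunits of eIF2B, the factor that recharges eIF2, gave 0 calls by edgeR and 0 at an unadjusted p under 0.05, with log2 changes from -0.10 for EIF2B2 to 0.25 for EIF2B4. EIF2B1 had 54.6, 50 and 44.6 CPM in ITC and 45.5, 40.8 and 39.8 CPM in vehicle libraries (0.24 ± 0.15). EIF2B3 had 27.4, 26 and 30.5 CPM in ITC and 22.4, 18.7 and 31.8 CPM in vehicle libraries (0.20 ± 0.19). Both overlapped between the groups. Of the 3 eIF2 kinases in the rule, 0 were called by edgeR, and 1 had an unadjusted p under 0.05. EIF2AK3, the kinase PERK of the endoplasmic reticulum, had 55, 70.1 and 71.4 CPM in ITC libraries, against 52.1, 48.8 and 52.9 CPM in vehicle libraries. The groups did not overlap, with ITC replicate 1 close to the vehicle libraries, and the log2 change was 0.35 ± 0.15 (edgeR adjusted p = 0.0821). Without that library the adjusted p was 0.0178. EIF2AK1, the heme-regulated kinase, had 134, 135 and 117 CPM in ITC and 127, 106 and 87.1 CPM in vehicle libraries (0.27 ± 0.17, edgeR adjusted p = 0.225). The groups overlapped there, and EIF2AK4, the amino acid sensor GCN2, differed by -0.09 ± 0.15.

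Subunits of eIF3 gave 2 rises and 1 fall among 14. EIF3E (chromosome 8, 108201216 to 108435333) had 185, 169 and 207 CPM in ITC libraries, against 264, 324 and 385 CPM in vehicle libraries. The groups were well apart, with a log2 change of -0.80 ± 0.17 (edgeR adjusted p = 0.00212), or 0.576 of the vehicle level, and the call held in all 19 alternatives. EIF3B, one of the core subunits (chromosome 7, 2354086 to 2380745), had 224, 187 and 172 CPM in ITC libraries, against 155, 142 and 127 CPM in vehicle libraries. Replicate 1 was the highest library of both groups, and the groups did not overlap, with a log2 change of 0.46 ± 0.16 (edgeR adjusted p = 0.0361). Its call was lost without ITC replicate 1 (0.0918), ITC replicate 2 (0.0843), vehicle replicate 2 (0.17) or vehicle replicate 3 (0.142), with no filter on low counts (0.0671), with upper quartile scaling (0.116) and with library size only (0.253).

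EIF3C (chromosome 16, 28688558 to 28735730) had 40.2, 23.9 and 13.8 CPM in ITC and 19, 13.6 and 8.95 CPM in vehicle libraries. The groups overlapped, although edgeR called it (0.91 ± 0.33, adjusted p = 0.0385). Its near-identical neighbour EIF3CL had 4.01, 4.39 and 23.7 CPM in ITC and 28.5, 4.14 and 3.99 CPM in vehicle libraries. The sum of both was 44.2, 28.3 and 37.4 CPM in ITC and 47.5, 17.7 and 12.9 CPM in vehicle libraries, which overlapped (exact two-sided permutation p = 0.4, where 3 against 3 cannot go below 0.1). The high EIF3CL values fell in ITC replicate 3 and vehicle replicate 1, so the division of reads between the copies differed between libraries of the same group. With copies added to their parent gene, an alternative chosen after seeing the data, the adjusted p of EIF3C was 0.288. The call was also lost in 10 of the other 18 alternatives, among them leaving out ITC replicate 1 (0.3), ITC replicate 2 (0.0529), vehicle replicate 2 (0.0748) or vehicle replicate 3 (0.105), and DESeq2 (0.212).

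EIF3I and EIF3A, the eIF3 transcripts of highest FPKM in ITC cultures, were not called. EIF3I had 200, 149 and 139 CPM in ITC and 127, 124 and 121 CPM in vehicle libraries. Again there was no overlap, with a log2 change of 0.39 ± 0.17 (edgeR adjusted p = 0.0818), and without ITC replicate 3 the adjusted p was 0.0461. EIF3A, the largest subunit, had 340, 370 and 366 CPM in ITC and 329, 304 and 258 CPM in vehicle libraries, likewise without overlap and without a call (0.27 ± 0.16, edgeR adjusted p = 0.183). The remaining 9 subunits, EIF3CL among them, were not called and differed by -0.19 to 0.31.

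In the cap-binding group, which holds the scaffold, cap-binding and helicase subunits of eIF4F and their relatives, 2 of 10 rose and 1 fell. EIF4G1, the scaffold that joins the cap-binding protein to the helicase and eIF3 (chromosome 3, 184314495 to 184335358), had 767, 642 and 525 CPM in ITC libraries, against 473, 395 and 286 CPM in vehicle libraries. The groups did not overlap, and replicate 1 was the highest and replicate 3 the lowest library of each. The log2 change was 0.74 ± 0.20 (edgeR adjusted p = 0.00926), and without ITC replicate 1 the adjusted p was 0.0524. EIF4E2, a cap-binding relative of eIF4E that takes part in silencing of mRNAs (chromosome 2, 232550052 to 232583644), had 89.8, 83 and 87.6 CPM in ITC libraries, against 61.1, 58.7 and 68.3 CPM in vehicle libraries. Libraries of each group lay close together and well apart from the other group, with a log2 change of 0.47 ± 0.14 (edgeR adjusted p = 0.019). That call was lost with upper quartile scaling (0.0823), with library size only (0.192) and without ITC replicate 2 (0.0515), vehicle replicate 1 (0.0583) or vehicle replicate 2 (0.167). Exons of genes on the opposite strand cover 24.2% of the EIF4E2 exon bases, and the use of strand in counting is not given in the sources used here.

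EIF4A2, an eIF4A helicase (chromosome 3, 186783205 to 186789900), had 158, 225 and 324 CPM in ITC libraries, against 312, 381 and 675 CPM in vehicle libraries. ITC replicate 3 lay above vehicle replicate 1, and in both groups replicate 3 was the highest, with a log2 change of -0.95 ± 0.28 (edgeR adjusted p = 0.0152). The call was lost without ITC replicate 1 (0.105) or 2 (0.051) and by DESeq2 (0.0875). Exons of other genes cover 17.9% of the EIF4A2 exon bases. EIF4A1, the other cytosolic eIF4A helicase, is listed with 1.09, 2.11 and 3.6 CPM in ITC and 2.13, 3.62 and 5.76 CPM in vehicle libraries. Of its exon bases, 48.6% are shared with other genes on its strand, and its pseudogene EIF4A1P10 had 132, 129 and 115 counts in ITC and 114, 63 and 144 counts in vehicle libraries. Copies held 45.8 to 88.8% of the counts of EIF4A1 and its pseudogenes, so the listed level of EIF4A1 is not a measure of that gene alone.

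EIF4E, the cap-binding subunit, had 48.5, 58.8 and 80.9 CPM in ITC and 63.3, 69 and 116 CPM in vehicle libraries. The groups overlapped and replicate 3 was highest in both (log2 change -0.40 ± 0.23, edgeR adjusted p = 0.191); without ITC replicate 3 the adjusted p was 0.0421. Its pseudogenes held 13.1 to 20.3% of the counts of EIF4E and its copies. EIF4G2, a scaffold without the eIF4E-binding part, had 1158, 1239 and 1218 CPM in ITC and 1190, 1059 and 1075 CPM in vehicle libraries, which overlapped (0.12 ± 0.15). EIF4H, a helper of the helicase, had 432, 366 and 338 CPM in ITC and 309, 304 and 238 CPM in vehicle libraries. All ITC libraries lay higher, and the log2 change of 0.42 ± 0.17 was not called (edgeR adjusted p = 0.0635). EIF4G3 (0.15 ± 0.16), EIF4B (-0.08 ± 0.15) and EIF4E3 (-0.01 ± 0.22) were not called either. EIF4A3, a helicase of the exon junction complex rather than of eIF4F, had 99, 94.9 and 77.8 CPM in ITC and 88.6, 80.8 and 64.7 CPM in vehicle libraries, with overlap (0.22 ± 0.17).

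None of the 4 genes for proteins that bind eIF4E and keep it from the scaffold was called by edgeR, with 0 of the 4 at an unadjusted p under 0.05. EIF4EBP1 had 20.2, 14.3 and 14.5 CPM in ITC and 18.5, 19.3 and 22.5 CPM in vehicle libraries. Its groups overlapped (log2 change -0.30 ± 0.18, edgeR adjusted p = 0.214), and it was called lower with library size only (0.0263). EIF4EBP2 had 192, 203 and 174 CPM in ITC and 179, 164 and 138 CPM in vehicle libraries, again with overlap (0.24 ± 0.16). EIF4ENIF1 (-0.15 ± 0.16) and EIF4EBP3 (0.24 ± 0.57, of which 73.4% of exon bases lie in other genes) completed the group.

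EIF5A was the called member of the group of eIF5A and eIF6 genes. EIF5A, the hypusine-bearing factor (chromosome 17, 7306999 to 7312463), had 471, 353 and 346 CPM in ITC libraries, against 253, 243 and 223 CPM in vehicle libraries. Every ITC library lay above every vehicle library, with ITC replicate 1 the highest. The log2 change was 0.70 ± 0.17 (edgeR adjusted p = 0.00404), or 1.63-fold, and the call held in all 19 alternatives. Its paralog EIF5A2 had 14.5, 15.6 and 17.2 CPM in ITC and 12.2, 15 and 13.3 CPM in vehicle libraries, which overlapped (0.22 ± 0.17, edgeR adjusted p = 0.337). EIF6, which keeps the large ribosomal subunit from joining too early, had 80.5, 61.9 and 62.6 CPM in ITC and 51.1, 54.5 and 56.6 CPM in vehicle libraries. Its groups did not overlap, but it was not called (0.34 ± 0.16, edgeR adjusted p = 0.1). EIF5AL1, a near-identical copy of EIF5A, differed by 0.50 ± 0.21 (adjusted p = 0.0689), and reads of the copies can be divided between them.

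Where a factor has paralogs, the share of one of them within a library does not depend on scaling between libraries. Shares were taken from counts per length in 7 sets, and differences tested by an exact two-sided permutation test, which cannot go below p = 0.1 for 3 against 3. EEF1A2 made up 0.258, 0.179 and 0.21% of EEF1A1 and EEF1A2 in ITC libraries, against 0.0866, 0.082 and 0.0401% in vehicle libraries. The groups did not overlap (0.216 ± 0.04% in ITC, 0.0696 ± 0.026% in vehicle; exact p = 0.1, adjusted over the 7 sets 0.175). EIF1B made up 18, 17.9 and 17.7% of EIF1 and EIF1B in ITC libraries, against 24.3, 24.5 and 22.6% in vehicle libraries. Here the spread within ITC was small, and the groups were far apart (17.9 ± 0.16% in ITC, 23.8 ± 1.1% in vehicle; exact p = 0.1, adjusted 0.175). EIF4G3 made up 15.1, 20.8 and 22.3% of EIF4G1 and EIF4G3 in ITC libraries, against 23.9, 26.2 and 29.8% in vehicle libraries. EIF4EBP1 made up 40, 31.5 and 35.3% of the 3 EIF4EBP genes in ITC libraries, against 40.7, 43.1 and 50.8% in vehicle libraries. Neither overlapped, and both gave the smallest p possible (exact p = 0.1, adjusted 0.175). Taken from counts not divided by length, the difference in share was -3.36 in place of -9.25 percentage points for EIF4EBP1 and -3.86 in place of -5.94 for EIF1B.

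The other sets overlapped between the groups. EIF5A2 was 2.05 ± 0.47% of EIF5A and EIF5A2 in ITC and 2.78 ± 0.35% in vehicle cultures (exact p = 0.2), a difference of -0.728 percentage points that was -1.38 when counts were not divided by length. EIF4E3 was 3.85 ± 0.49% of EIF4E, EIF4E2 and EIF4E3 in ITC and 4.5 ± 1.5% in vehicle cultures (exact p = 0.5). The share of EIF4A2 in EIF4A1 and EIF4A2, 98.7 to 99.2% in ITC and 98.9 to 99.2% in vehicle libraries (exact p = 0.7), is uncertain because of how EIF4A1 was counted.

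**Figure D5:**
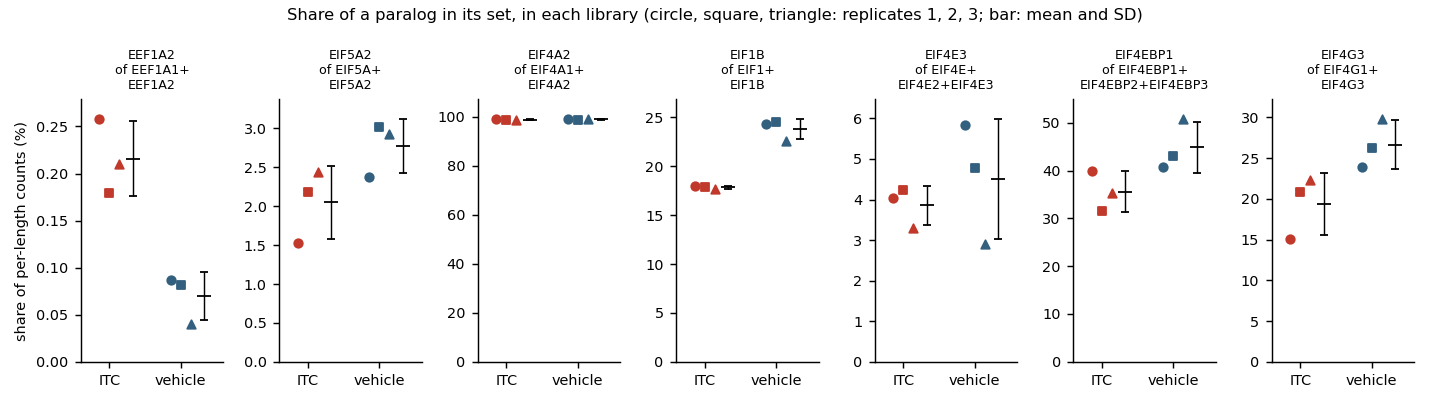
Share of a named paralog in the per-length counts of its set, in percent, in each library, ITC left of vehicle, for 7 sets. Points are libraries and bars the mean and SD; the groups are apart for EEF1A2, EIF1B, EIF4EBP1 and EIF4G3 and overlap for the other sets.

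Genes that act with these factors were grouped in 7 lists. Over all tested genes, 20.4% rose and 19% fell. Over the 7 lists, 21 genes rose and 8 fell, against 12 and 12 with upper quartile scaling and 11 and 17 with library size only. How many rose or fell therefore depends on the scaling. Of 20 cytosolic aminoacyl-tRNA synthetases, 7 rose and the other 13 were not called, with a median log2 change of 0.15. WARS, the tryptophan enzyme, was at 345 ± 74.3 CPM in ITC and 41.1 ± 6.17 CPM in vehicle cultures (3.07 ± 0.20, edgeR adjusted p = 1.8e-08). HARS (0.63 ± 0.14) and CARS (0.60 ± 0.15) rose less, and NARS (-0.24 ± 0.17) was not called. Of 8 genes of termination and recycling, 2 rose and the other 6 were not called. The called ones were the release factor ETF1, at 212 ± 12.3 CPM in ITC and 121 ± 4.02 CPM in vehicle cultures (0.81 ± 0.15, edgeR adjusted p = 0.000491), and the rescue factor PELO (0.48 ± 0.15). GSPT1, the GTPase partner of ETF1, was not called (0.22 ± 0.16).

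Of 9 enzymes that make hypusine on eIF5A and diphthamide on eEF2, 1 rose and 2 fell, with a median of -0.31. DOHH, which completes hypusine, was at 27.6 ± 5.16 CPM in ITC and 16.1 ± 1.87 CPM in vehicle cultures (0.78 ± 0.18, edgeR adjusted p = 0.00319). DPH5 was at 15.9 ± 1.17 CPM in ITC and 33.2 ± 9.67 CPM in vehicle cultures (-1.07 ± 0.20, edgeR adjusted p = 0.000684), and DPH6 at 5.23 ± 1.7 CPM in ITC and 12.2 ± 3.25 CPM in vehicle cultures (-1.22 ± 0.27, edgeR adjusted p = 0.002). Both fallen genes act in diphthamide synthesis, and DPH3 of the same pathway was not called (-0.01 ± 0.17). Of 5 poly-A binding proteins and partners, PABPC1, which contacts the eIF4G scaffold, rose (0.55 ± 0.18, edgeR adjusted p = 0.0254), PAIP2B fell (-0.70 ± 0.26, adjusted p = 0.0468), and PAIP1 was among the 3 not called (-0.05 ± 0.15).

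Of 14 target genes of the integrated stress response, the program that follows eIF2 phosphorylation, 5 rose and 3 fell, with a median of 0.17. CEBPB (2.84 ± 0.19), a transcription factor, and PPP1R15A (1.38 ± 0.16), which directs removal of the phosphate from eIF2, rose. PSAT1, of serine synthesis, fell (-2.35 ± 0.16, edgeR adjusted p = 2.69e-08), and ATF4 itself was at 265 ± 14.5 CPM in ITC and 291 ± 24.5 CPM in vehicle cultures (-0.14 ± 0.15, adjusted p = 0.5). Of 16 genes of mTORC1 and eIF4 control, 3 rose and 2 fell, with a median of 0.11. MKNK1, a kinase of eIF4E, rose (0.55 ± 0.18), while DEPTOR, an inhibitor of mTOR (-2.60 ± 0.29), and PDCD4, an inhibitor of eIF4A (-0.51 ± 0.15), fell. LARP1, which binds pyrimidine tract mRNAs, was not called (0.11 ± 0.18). Of 9 mitochondrial translation factors, 2 rose, MTRF1L (0.73 ± 0.17) and TSFM (0.68 ± 0.16), with a median of -0.01. The other 7 were not called, among them TUFM, the mitochondrial counterpart of eEF1A (0.30 ± 0.20).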

How the data were processed

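RNA-seq was done on 3 ITC and 3 vehicle cultures, with groups taken from the sample titles. The authors deposited a table of 30949 genes. The count columns, named so per the file headers, hold unscaled whole numbers for each gene. FPKM values, also made by the authors, divide by the listed gene length and were used for levels between genes. The deposited normalized signal is the count divided by a size factor constant within a library (tested on the values, largest relative spread 9.7e-10). The deposited log2 fold changes and p-values, per the file headers, were not used. In the submitters' processing notes stand GRCh38 (hg38) and DESeq2. How reads were aligned, counted and assigned by strand is not given in the sources used here. There were 0 unmapped sample columns and 0 rows naming no gene, and genes are listed from a total count of 2.

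The test was run in R 4.3.3 with edgeR 4.0.16 (filterByExpr, TMM, quasi-likelihood test without covariates, Benjamini-Hochberg over 16756 genes, threshold 0.05). The SE is the log2 change divided by the square root of F. Depth of 17398921 to 29941685 counts limits precision for members of a few CPM. The closest libraries of a group differed by a chi-square of 11.3 per degree of freedom, so none is a copy of another. Exon overlaps used GENCODE 29, in which 99.8% of gene identifiers had identical coordinates, and the fit was tested on simulated counts. Alternatives were other scalings and filters, leaving out each library, a replicate block, DESeq2 1.42.0, voom and limma 3.58.1 on log2(FPKM + 1) and log2(FPKM + 0.1), protein-coding genes only, and copies summed into their parent gene, the last added after seeing the data. Exact tests enumerated all divisions of the libraries into 3 and 3 in Python 3.11.15, and plots were made with matplotlib 3.10.9.

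Members and lists were chosen with earlier results of these data known. Full values are given for called members among the 4 of smallest p in a role, for up to 2 uncalled members of highest FPKM per role, and for EEF1A1, EEF1A2, EEF2, EIF2AK3, EIF4E, EIF4EBP1, EIF5A and EIF5A2. Each related list has up to 3 called genes of smallest p and 1 uncalled gene of highest CPM.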

Additional observations from a re-analysis of the deposited data

How the results depend on the processing

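The 8 higher and 6 lower members became 5 and 9 with upper quartile scaling and 3 and 10 with library size only. Leaving out 1 library gave 3 to 8 higher and 2 to 9 lower. EEF1A2, EIF5A, EIF3E and EEF1AKMT2 were called in all 19 alternatives, and no named member with a call changed direction. Same-numbered libraries correlated at 0.268, 0.00733 and 0.384 in their deviations from the group means, and differently numbered ones at -0.338 to 0.0697. Replicates 1 and 3 of each group correlated best with their own number, and replicate 2 of neither group did. Whether the numbers pair the samples therefore cannot be told from these values. With the replicate block 16 members were higher and 11 lower, 8416 genes were called in all, and the 14 calls without it were kept. The block added EEF1A1 (adjusted p = 0.0038), EIF4H (0.00395), EIF4E (0.0124), EIF3I (0.0167), EIF2AK3 (0.0294), EIF5 (0.0356), EIF6 (0.0434), EEF1B2, EEF1D, EIF3D, EIF4A1, EIF5AL1 and EIF5B. The share of EIF4A2 differed by -0.223 to 0.0159 percentage points with 1 library left out, and that of EIF4E3 by -1.45 to 0.0147. EIF4A1 and EIF4EBP3, with few counts, had SEs of 0.43 and 0.57, and EIF3CL, which differed widely between libraries of a group, 0.70.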

Other observations

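METTL13 encodes a further methyltransferase of eEF1A whose symbol lies outside the naming rule, and it was chosen after its values were seen. It had 84.8, 70.6 and 66 CPM in ITC libraries, against 32.9, 34 and 28.3 CPM in vehicle libraries. The groups did not overlap, with a log2 change of 1.22 ± 0.16 (edgeR adjusted p = 2.3e-05).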
